A study of Apis mellifera with 12 samples.

Results

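The K-box miRNAs miR-2, miR-13b and miR-11 and the cluster partner miR-71 were followed in honey bee (Apis mellifera) worker brains in which vitellogenin had been targeted by RNA interference. Vitellogenin is a yolk precursor, and in workers its level is linked to when a bee starts to forage. The members were taken by name, and they are 4 of the 168 honey bee miRNA probes on the array. Bees of the dsVg group were injected into the abdomen on emergence with 2 µL of dsRNA (10 µg/µL) matching vitellogenin. Those of the dsGFP group, the sham control, were given as much dsRNA matching green fluorescent protein. Brains were sampled at 15 days of age, although the source names call them forager brains. Each group had 6 pools of 5 brains, 1 µg of small RNA per pool and 200 ng from each bee, and each pool was hybridized to its own 1-colour array. The knockdown itself could not be checked on these arrays, which measure miRNAs and not vitellogenin mRNA. The design text calls the pools biological samples, each of 5 unique bees, and p-values measure the spread between these pools. With pooled whole brains, fewer cells of a type and less miRNA per cell cannot be told apart.

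A miRNA finds its targets mainly through its seed, the bases 2 to 8 from its 5′ end. The K box is a short motif in the mRNAs of Notch pathway genes in flies, and the family of miR-2, miR-13 and miR-11 carries the complementary seed. In flies the family also represses the pro-apoptotic genes around reaper. miR-71 has a different seed, is absent from flies and vertebrates, and is known in nematodes for roles in lifespan and in neurons. In many invertebrates it is encoded next to miR-2 and miR-13.

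The target sequences listed in the scanner tables show what the members share, and the seed is in capitals. The first 4 are the members, and the last 2 are the other array miRNAs with the K-box seed.
ame-miR-71: uGAAAGACauggguaguga
ame-miR-2: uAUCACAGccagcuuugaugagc
ame-miR-13b: uAUCACAGccauuuuugacgauu
ame-miR-11: cAUCACAGgcagaguucuaguu
ame-miR-13a: uAUCACAGccauuuugaugag
ame-miR-2944: uAUCACAGcaguaguuaccuggu

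The shared seed AUCACAG pairs with CUGUGAU, which contains the K box. Counted from the 5′ end, miR-2 and miR-13b are identical over the first 11 bases and match at 18 of 23 positions. The substitutions from miR-2 to miR-13b are G12U, C13U, U19C, G22U and C23U. They leave miR-13b with a GC content of 34.8%, against 47.8% for miR-2 and 45.5% for miR-11. The target of miR-71 is 19 bases long with 42.1% GC. miR-13a shares its first 15 bases with miR-13b and, counted without a gap, matches it at 15 of 21 positions. The run of u is shorter in miR-13a, which puts the bases after it out of step in this count.

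All 6 names were matched to genes in RefSeq (Amel_HAv3.1). On linkage group LG1, 7 miRNA genes follow each other with no other gene between them, in the order Mir2-2, Mir2-1, Mir2b, Mir13b, Mir13a, Mir2-3 and Mir71. The probe named miR-2 does not say from which of the Mir2 genes its target came. Mir11 lies on LG9 within the span of the protein-coding gene LOC412770. In flies, miR-11 sits in an intron of the cell cycle gene E2f1. Mir2944 lies on LG15. No coordinates are given, because the scanner tables name no genome build.

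All 4 members counted as detected on all 12 arrays, meaning that the mean of the 18 spots of the probe exceeded the 95th percentile of the 608 empty spots. By this threshold 97 to 168 of the 168 probes were detected on dsVg pools 1 to 3 and dsGFP pools 1, 3 and 4, and 34 to 60 on the other 6 arrays. With the mean plus 3 SD of the empty spots as the threshold, miR-71 was detected on 11 arrays and the other members on 12. The intensity of miR-2 was 12 to 108 times the median empty spot, that of miR-11 9.68 to 95 times and that of miR-13b 2.78 to 91.4 times. For miR-71 the range was 1.39 to 34.2 times, with dsVg pools 1 and 5 both at 1.39. The 2 other K-box probes lay at the level of the empty spots: miR-13a at 0.757 to 1.33 times and miR-2944 at 0.757 to 1.24 times. miR-13a was above the threshold on 5 arrays and miR-2944 on 6, all among those on which at least 97 of the 168 probes were. The probe for miR-13a thus stayed near the empty spots on arrays where that for miR-13b, whose target has the same first 15 bases, was bright.

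**Figure D1:**
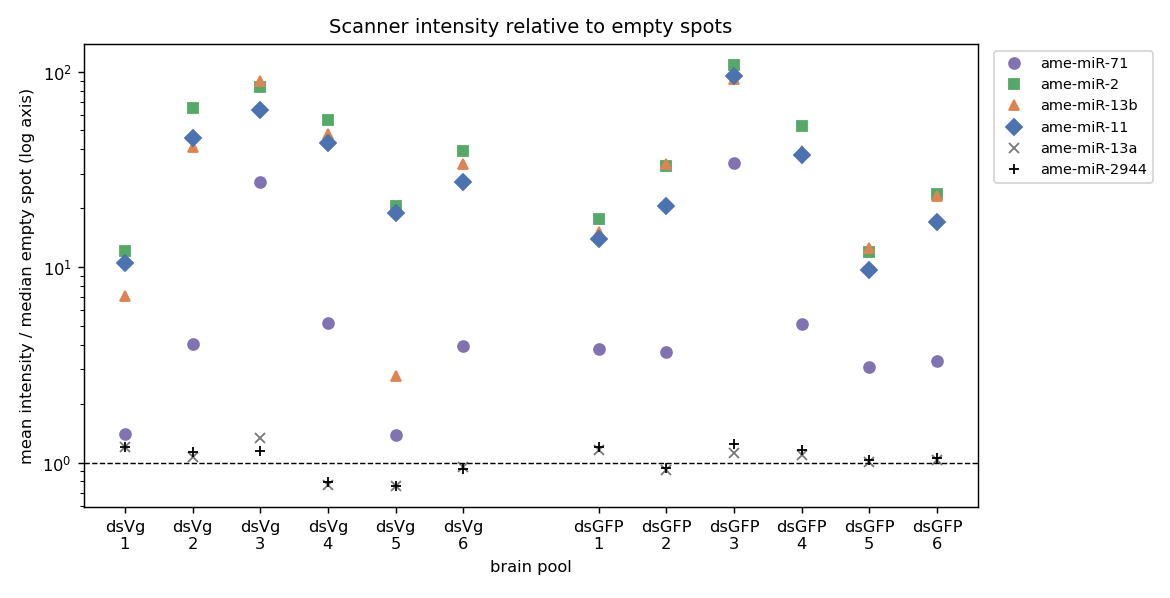
Mean scanner intensity of each probe divided by the median empty spot of the same array (log axis), for the 6 dsVg and the 6 dsGFP pools; each symbol is 1 miRNA and the dashed line is the level of empty spots. miR-13a and miR-2944 stay between 0.757 and 1.33 on all arrays, miR-71 comes down to 1.39 in dsVg pools 1 and 5, and in dsVg pool 5 miR-13b, at 2.78, lies far below miR-2 and miR-11. Probes differ in binding, so heights of different miRNAs do not rank their abundance.

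The groups were compared on background-corrected log2 signal after quantile normalization, with limma fitted to the 84 miRNAs detected on at least 6 arrays and Benjamini-Hochberg adjustment over all 84. None of the 4 members differed between the groups by this test. With limma, 0 of the 84 miRNAs passed an adjusted p of 0.05 (0%), and 3 had an unadjusted p under 0.05 (3.57%), of which 2 were lower (2.38%) and 1 was higher (1.19%) in dsVg brains. None of the 3 was a member. In no tested miRNA, members included, were the dsVg and dsGFP pools without overlap (0%). Exact permutation p-values are two-sided, from all 924 ways to divide the pools, and cannot go below 0.00216. Mean signal was lower in dsVg brains for miR-71, miR-13b and miR-2 and higher for miR-11. The median difference over all 84 miRNAs was 0.03. Quantile normalization gives each probe the value of its rank on the array, which is why bright members repeat the same values between pools.

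**Figure D2:**
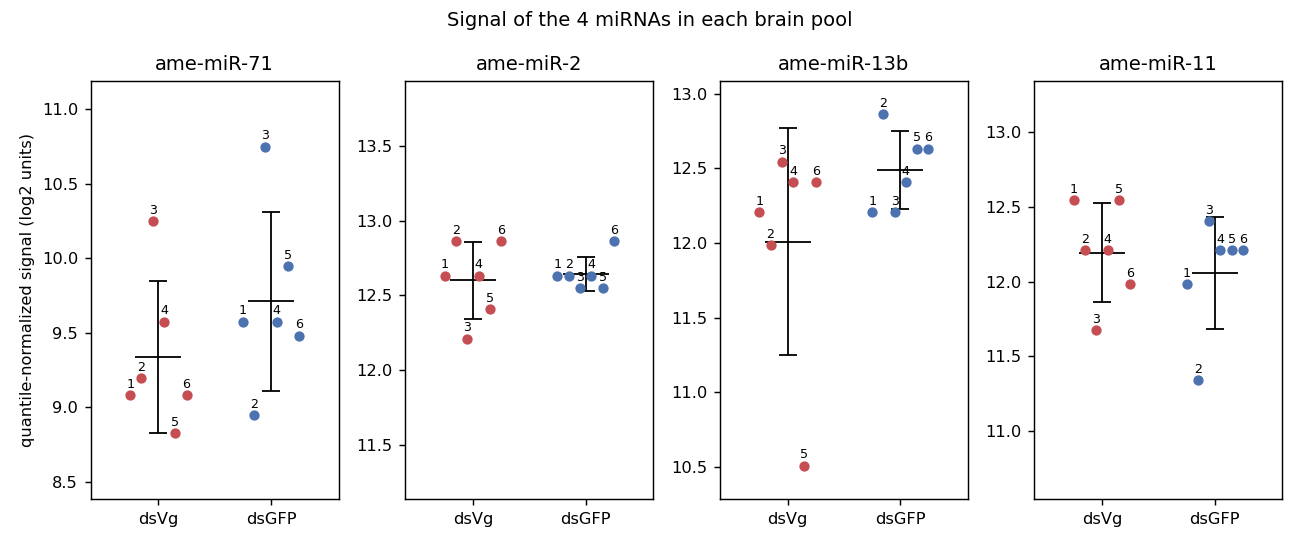
Quantile-normalized log2 signal of each member in the 6 dsVg and the 6 dsGFP pools; numbers are pool numbers, and the black bars give mean and SD. Axes span the same number of log2 units. The groups overlap for all 4 members, and dsVg pool 5 lies at 10.51 for miR-13b where the other 11 pools lie between 11.99 and 12.86.

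miR-13b, the least GC-rich of the 4, had the largest difference among them. Its scanner intensity ranged from 1328 to 11493 with a median of 5877 in dsVg pools, against 3366 to 10801 with a median of 4409 in dsGFP pools. One column of the authors' table, that of dsGFP pool 4, followed the deviations of its own array less (r = 0.18 across 33 miRNAs) than those of dsVg pool 5 (r = 0.37), while the other 11 matched their own array best, at r of 0.78 to 0.97. Without that pool the difference in the authors' values was -0.55 for both miR-13b and miR-71, 0.15 for miR-2 and 0.32 for miR-11, against -0.53, -0.50, 0.13 and 0.28 with it. The authors' processed values of miR-13b were 691 to 4582 (median 3762.5) in dsVg pools and 3377 to 5740 (median 3919.5) in dsGFP pools. On both scales dsVg pool 5 was the lowest, dsVg pool 1 (2153 and 2932) was also below every dsGFP pool, and the other 4 dsVg pools lay above the lowest dsGFP pool.

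The normalized signal of miR-13b averaged 12.01 ± 0.76 in dsVg brains and 12.49 ± 0.26 in dsGFP brains (log2, SD, n = 6 each). The difference was -0.48 (SE 0.31, 95% interval -1.15 to 0.19), with 5 of 6 dsVg pools below the dsGFP mean. Its adjusted p was 0.772 with limma, 0.389 to 0.984 over 33 alternative settings, and the exact permutation p was 0.126. Without dsVg pool 5 the difference was -0.17. Within the arrays on which over 80 miRNAs were detected (dsVg pools 1 to 3, dsGFP pools 1, 3 and 4) it was -0.03, and within the other 6 arrays, which include dsVg pool 5, it was -0.94.

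The low value in dsVg pool 5 was shared by all spots of the probe. The 18 miR-13b spots there read 1132 to 1704 with a median of 1281. On the same array, the miR-11 spots read 8398 to 9496, and 17 of the 18 miR-2 spots read 9670 to 10877. The remaining miR-2 spot read 1114, and it was the only one of the members' 864 spots under 0.5 of the median of its probe on that array. Over all miRNA probes, 14 of 36288 spots were that low. Leaving such spots out turned the difference of miR-2 to 0.013 and that of miR-13b to -0.49. The array of dsVg pool 5 also differed in its format, with 100% of intensities given without decimals where the other arrays had at most 1.11%, and in its empty spots, whose median of 478 was the highest. The part of these 2 features in the value of miR-13b was not tested.

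**Figure D3:**
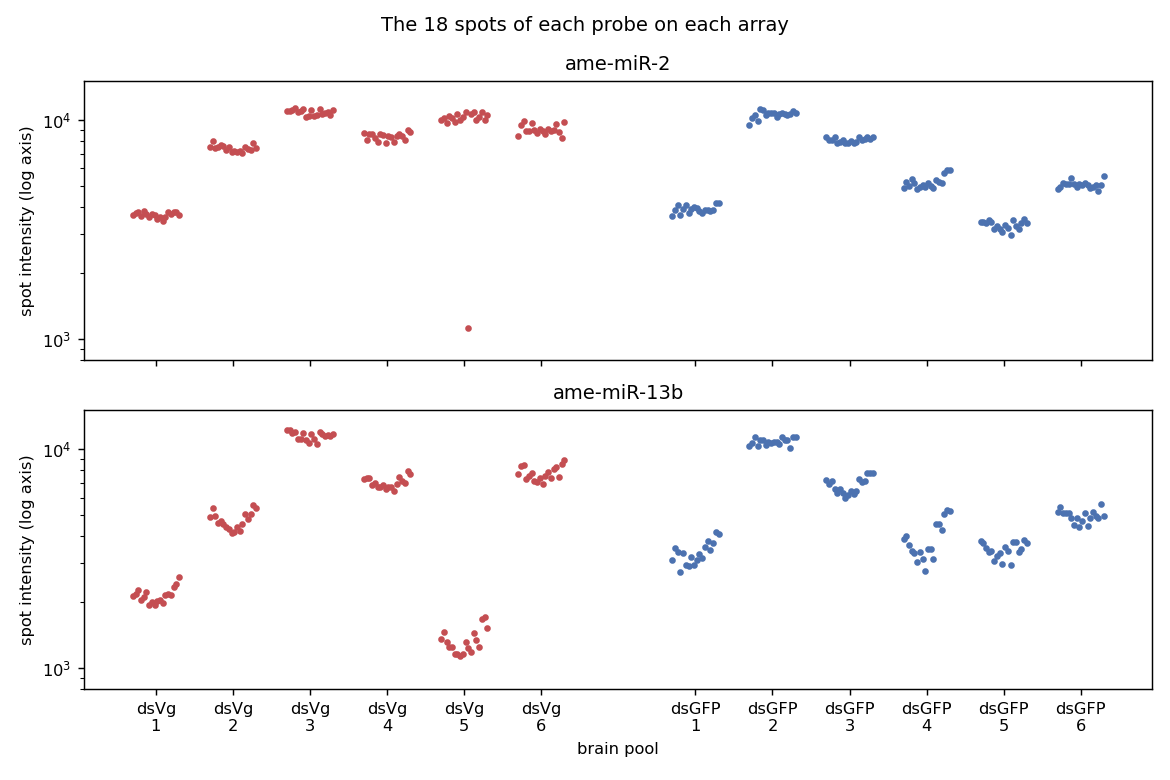
Intensity (log axis) of each of the 18 spots of the miR-2 and miR-13b probes on each array, from left to right in the order of the scanner table; dsVg pools are red and dsGFP pools blue. In dsVg pool 5 the miR-13b spots lie together between 1132 and 1704, while miR-2 has a single low spot at 1114. The ratio of middle to outer miR-13b spots is under 1 on all 12 arrays.

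The 18 spots stand in 6 blocks of rows, and the miR-13b spots in the 2 middle blocks were dimmer than those in the 2 outer blocks on all 12 arrays. The ratio of middle to outer intensity was 0.721 to 0.984 for miR-13b (median 0.871), 0.720 to 0.981 for miR-71 (median 0.849), 0.850 to 0.984 for miR-11 (median 0.926) and 0.875 to 1.02 for miR-2 (median 0.965). The lowest miR-2 ratio is that of dsVg pool 5 and holds the spot at 1114. Without that spot it is 1.03 there, and the lowest is 0.917. The median over the 33 miRNAs detected on all arrays was 0.820 to 0.984. The middle blocks were thus dimmer for most miRNAs, and among these 33 miR-71 and miR-13b had the third and the sixth lowest median ratio. The spread over the spots of a probe was larger for the same 2 miRNAs, with a median coefficient of variation of 9.82% for miR-71, 8.01% for miR-13b, 4.76% for miR-11 and 3.86% for miR-2.

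miR-71, the member with its own seed, came closest to background. Its scanner intensity was 424 to 3516 with a median of 714 in dsVg pools, against 508 to 2555 with a median of 847 in dsGFP pools. Processed values by the authors were 231 to 587 (median 310) in dsVg pools and 286 to 830 (median 462) in dsGFP pools. In both groups pool 3 was the highest.

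The normalized signal of miR-71 was 9.34 ± 0.51 in dsVg brains and 9.71 ± 0.60 in dsGFP brains. The difference of -0.38 (SE 0.30, 95% interval -1.03 to 0.28) had 5 of 6 dsVg pools below the dsGFP mean, an adjusted limma p of 0.772 and an exact permutation p of 0.284. It was negative in all 33 alternative settings, between -0.56 and -0.17, and passed the adjusted threshold in none (adjusted p = 0.369 to 0.993). The value nearest 0 came without dsGFP pool 3. Settings that change only the filter or add a block leave the difference at -0.38 by construction. Values of dsVg pools 1 and 5 rest on signals close to the empty spots.

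miR-2, which gives the family its name in flies, varied least of the 4 between pools. Scanner intensities were 3682 to 10810 with a median of 8708 in dsVg pools, against 3301 to 10549 with a median of 5115 in dsGFP pools. The authors' values were 4773 to 7058 (median 6547) in dsVg pools and 4829 to 6602 (median 5846) in dsGFP pools. The ranges of the groups overlapped on both scales, while the dsVg pools had the higher median on both.

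After normalization miR-2 stood at 12.60 ± 0.26 in dsVg brains and 12.64 ± 0.12 in dsGFP brains, a difference of -0.04 (SE 0.12, 95% interval -0.30 to 0.22, adjusted limma p = 0.889, exact permutation p = 0.758). The pooled SD within groups was 0.20, the 61st largest of 84, where that of miR-13b (0.57) was the 14th and that of miR-71 (0.56) the 16th. The sign of the miR-2 difference followed the scaling: it was 0.29 after scaling to the 75th percentile, 0.42 after scaling to the median, 0.09 with cyclic loess, 0.48 without normalization and 0.13 in the authors' processed values. The interval does not cover the choice of scaling. Over the 12 pools the authors' values and the normalized signal correlated at r = 0.10 for miR-2, against 0.67 for miR-11, 0.94 for miR-71 and 0.98 for miR-13b.

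miR-11, encoded apart from the cluster, had scanner intensities of 3206 to 9011 with a median of 6331 in dsVg pools, against 2668 to 7104 with a median of 3653 in dsGFP pools. The authors' values were 2631 to 5786 (median 3689.5) in dsVg pools and 2681 to 3674 (median 3146.5) in dsGFP pools. The highest value of the authors was that of dsVg pool 5, the pool in which miR-13b was lowest.

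Normalized miR-11 signal was 12.20 ± 0.33 in dsVg brains and 12.06 ± 0.38 in dsGFP brains. The difference was 0.14 (SE 0.20, 95% interval -0.29 to 0.56, adjusted limma p = 0.838, exact permutation p = 0.548), with 4 of 6 dsVg pools above the dsGFP mean. It became -0.02 without dsGFP pool 2 and -0.06 within the arrays with over 80 detected miRNAs, and it was 0.56 without normalization and 0.28 in the authors' values. With cyclic loess it was 0.19, and miR-11 was then among 7 miRNAs with an unadjusted limma p under 0.05 (unadjusted p = 0.0237, adjusted p = 0.437).

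**Figure D4:**
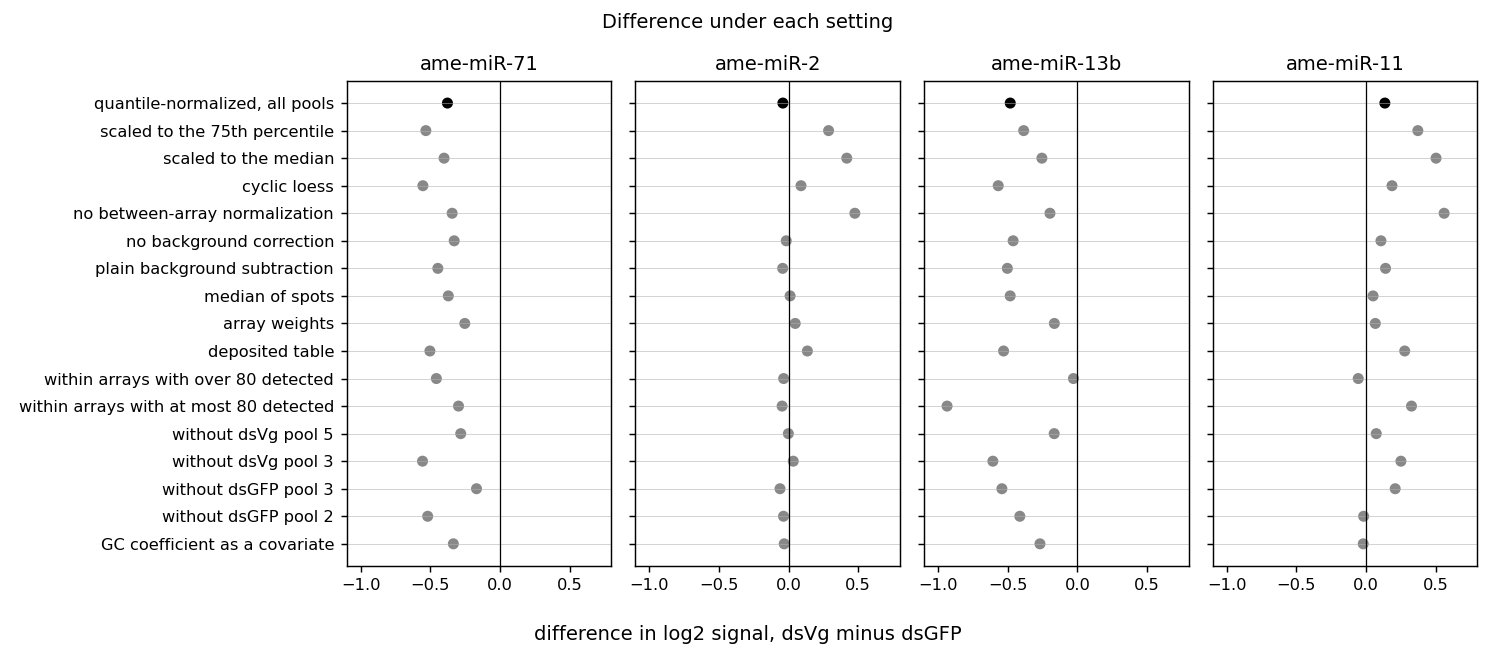
Difference in mean log2 signal, dsVg minus dsGFP, of each member under the main setting (black) and a selection of the alternatives (grey). miR-71 and miR-13b stay left of 0, miR-13b between -0.94 and -0.03, while the sign of miR-2 changes with the scaling and miR-11 crosses 0 when dsGFP pool 2 is left out, within 1 kind of array, and with the GC coefficient as a covariate.

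Whether cluster partners or seed relatives followed each other from pool to pool was asked with 6 pairwise correlations over the 12 pools. None passed Benjamini-Hochberg adjustment over the 6 pairs after quantile normalization. With that normalization the closest pair was miR-13b and miR-11, which ran in opposite directions (Pearson r = -0.58, permutation p = 0.0714, adjusted p = 0.428; Spearman rho = -0.61, permutation p = 0.0391, adjusted p = 0.235). The r was -0.64 within dsVg and -0.63 within dsGFP pools, -0.56 and -0.66 within the 2 kinds of array, -0.63 without dsVg pool 5 and -0.34 without dsVg pool 5 and dsGFP pool 2, the pools farthest from the median of miR-13b. In the authors' values it was -0.81 (permutation adjusted p = 0.0321), or -0.83 without dsGFP pool 4 (permutation adjusted p = 0.0400), and it turned to 0.61 with median scaling and 0.34 without normalization. The adjusted p ran from 0.0321 to 0.627 over its 28 alternatives.

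For the 3 pairs encoded in 1 cluster, r was -0.40 for miR-71 with miR-2, 0.33 for miR-71 with miR-13b and 0.24 for miR-2 with miR-13b, with permutation p-values of 0.197, 0.280 and 0.407 and an adjusted p of 0.561 for the first pair and the second and 0.611 for the third. Spearman's rho was -0.38, 0.18 and 0.05 (permutation p = 0.227, 0.567 and 0.866, adjusted p = 0.680, 0.866 and 0.866). Without the 2 pools farthest from the median of the first miRNA, r was 0.02, 0.49 and 0.61. Within dsVg pools the r values were -0.55, 0.62 and 0.20, against -0.47, -0.67 and 0.29 within dsGFP pools. Within the arrays with over 80 detected miRNAs they were -0.63, 0.42 and -0.87, and within the others 0.11, 0.50 and 0.63. For miR-11 with miR-71 and with miR-2, r was 0.03 and 0.10 (permutation p = 0.936 and 0.760, adjusted p = 0.936 and 0.912) and rho -0.09 and -0.15 (permutation p = 0.786 and 0.636, adjusted p = 0.866 for both), and r was 0.07 and -0.33 without the farthest pools. Within groups the 2 values were -0.81 and 0.22 in dsVg pools and 0.79 and -0.04 in dsGFP pools, and within kinds of array -0.26 and 0.60 on those with over 80 detected miRNAs and 0.23 and -0.30 on the others. These signs follow the scaling: after scaling to the median all 6 pairs correlated positively, with r of 0.61 to 0.97 and all 6 past the adjusted threshold. The highest of these was miR-2 with miR-11, at 0.97 (permutation adjusted p = 6e-05). The r of that pair was 0.91 after scaling to the 75th percentile (permutation adjusted p = 0.00042) and 0.96 without normalization (permutation adjusted p = 6e-05).

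Differences between 2 members on the same array do not depend on a scaling of the whole array. Before normalization, miR-2 minus miR-13b was -0.09 to 2.98 in dsVg pools (median 0.46), against -0.07 to 0.45 in dsGFP pools (median 0.13). The 3 highest values belonged to dsVg pool 5 at 2.98, dsVg pool 1 at 0.84 and dsVg pool 2 at 0.66. The mean was 0.81 ± 1.11 in dsVg pools and 0.14 ± 0.20 in dsGFP pools, which differ by 0.67 (exact permutation p = 0.113, adjusted p = 0.227 over the 6 pairs of members). The least spread was that of miR-2 minus miR-11, at 0.34 ± 0.20 in dsVg pools and 0.43 ± 0.18 in dsGFP pools, which differ by -0.09 (exact permutation p = 0.463, adjusted p = 0.556). The other 4 pairs had an exact permutation p of 0.102 to 0.783, and 0 of 6 pairs passed the adjusted threshold. After quantile normalization the miR-2 minus miR-13b difference was 0.44 (exact permutation p = 0.225, adjusted p = 0.450) and 0.18 without dsVg pool 5, and 0 of 6 passed.

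The signals of miR-13b and miR-11 were also set against how deviations across other miRNAs related to GC content on each array. For each array, a GC coefficient was taken as Pearson's r, across the 80 tested miRNAs other than the members, between the GC content of the target and the deviation of the signal from the mean of the other 11 pools. This measure was chosen after the values were seen, and 6 relations to it were computed. The permutation p-values of these relations do not account for that choice. They are set against no relation, although relations with the coefficient were common over all tested miRNAs, as given below. The coefficient was highest in dsVg pool 5 (0.46), dsVg pool 1 (0.32) and dsGFP pool 4 (0.21), and lowest in dsGFP pool 2 (-0.45). Between the groups it averaged 0.02 ± 0.33 in dsVg pools and -0.13 ± 0.23 in dsGFP pools (exact permutation p = 0.383).

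Across the 12 pools, GC-poor miR-13b was lower where the coefficient was higher (Pearson r = -0.74, permutation p = 0.00162, adjusted p = 0.00324; Spearman rho = -0.73, permutation p = 0.00936, adjusted p = 0.0140). miR-11 was higher (r = 0.84, permutation p = 6e-04, adjusted p = 0.0018; rho = 0.89, permutation p = 0.00024, adjusted p = 0.00144). Without dsVg pools 1 and 5, the 2 pools farthest from the median coefficient, r was -0.60 for miR-13b and 0.77 for miR-11. Within dsVg pools it was -0.78 and 0.94, within dsGFP pools -0.57 and 0.74, within the arrays with over 80 detected miRNAs -0.37 and 0.87 and within the others -0.93 and 0.81. The relation of miR-13b was negative in all 26 alternative settings. That of miR-11 was 0.36 after scaling to the 75th percentile and turned negative with median scaling (-0.47) and without normalization (-0.36). The r of miR-71 was -0.23 and that of miR-2 -0.12 (permutation p = 0.479 and 0.719, adjusted p = 0.574 and 0.719; rho -0.13 and -0.16, permutation p = 0.676 and 0.625, adjusted p = 0.676 for both). Leaving out dsVg pools 1 and 5 gave 0.24 and 0.16, and within dsVg and dsGFP pools r was -0.71 and 0.54 for miR-71 and -0.02 and -0.33 for miR-2. Within the arrays with over 80 detected miRNAs the r of miR-71 was -0.54 and within the others -0.17. For miR-2 these were 0.62 and -0.73. Over the 12 pools, r rose with the GC content of the target from miR-13b (34.8%) over miR-71 (42.1%) to miR-11 (45.5%). The most GC-rich member, miR-2 at 47.8%, broke this order with its r of -0.12. Ranked from the lowest GC content among the 84 tested miRNAs, miR-13b stood at 7, miR-71 at 23, miR-11 at 32 and miR-2 at 41. The r of miR-11 was thus not that of the most GC-rich member, and its target was not GC-rich among those tested. The part of GC content in the r of miR-11 was not tested.

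The unnormalized difference of miR-2 minus miR-13b followed the coefficient too (r = 0.78, permutation p = 0.00012, adjusted p = 0.00072; rho = 0.85, permutation p = 0.00075, adjusted p = 0.00184). It gave 0.73 without dsVg pools 1 and 5, 0.85 within dsVg and 0.75 within dsGFP pools, and 0.90 within each kind of array. With quantile-normalized signal r was 0.72, and with the coefficient recomputed within each kind of array it was 0.50 within the arrays with over 80 detected miRNAs (exact permutation p = 0.303) and 0.85 within the others (exact permutation p = 0.0611). The middle-to-outer ratio of the miR-13b spots was lower where the coefficient was higher (r = -0.78, permutation p = 0.00237, adjusted p = 0.00355; rho = -0.85, permutation p = 0.00092, adjusted p = 0.00184), with -0.91 without the same 2 pools, -0.86 within dsVg and -0.95 within dsGFP pools, and -0.66 and -0.92 within the 2 kinds of array. Such relations were common on these arrays. For this comparison the coefficient left out the miRNA in question, which gave an r of 0.83 for miR-11 and -0.74 for miR-13b. The median size of r with it was 0.55 over all 84 miRNAs, 12 miRNAs reached or passed the size for miR-11 and 19 that for miR-13b, each counted with the member itself. With the coefficient as a covariate, the dsVg minus dsGFP difference was -0.27 for miR-13b, -0.02 for miR-11, -0.33 for miR-71 and -0.03 for miR-2 (limma, adjusted p of 0.847 to 0.979).

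**Figure D5:**
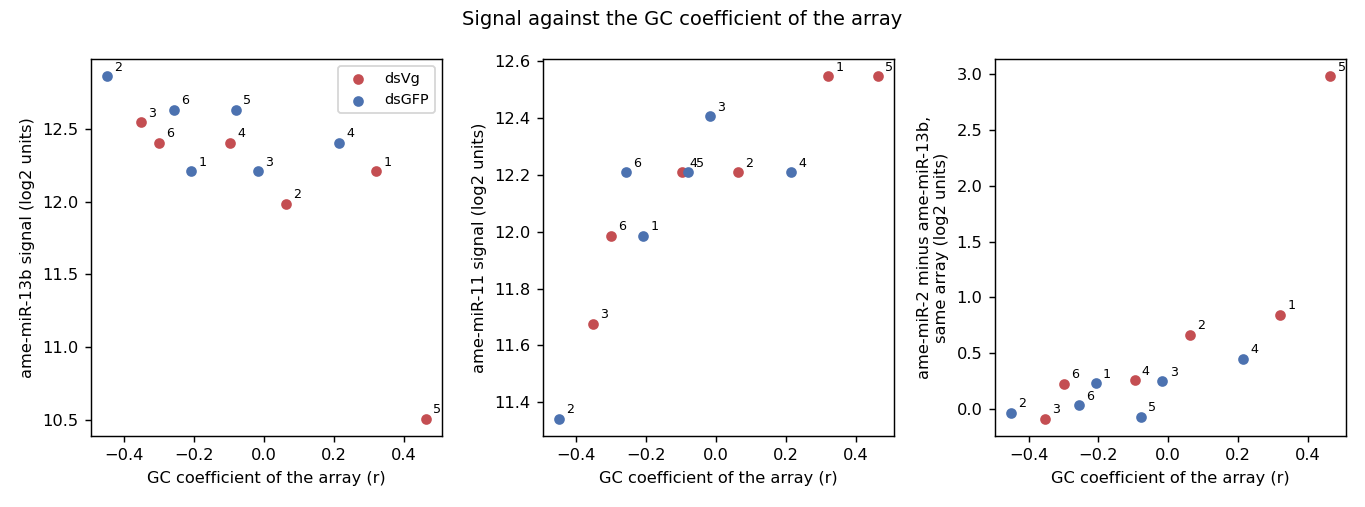
Normalized signal of miR-13b and of miR-11, and the unnormalized same-array difference of miR-2 minus miR-13b, against the GC coefficient of the array; each point is 1 pool with its number, dsVg in red and dsGFP in blue. Pools of both groups share the trends, with r of -0.74, 0.84 and 0.78, and dsVg pool 5 lies at the right-hand end of all 3 plots.

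The miRNAs whose signals most resembled each member over the 12 pools were listed as a description, without a test. For miR-71 they were miR-3732 (r = 0.81), miR-3718a (0.72) and the muscle miRNA miR-1 (0.71). miR-1 was one of the 3 with an unadjusted p under 0.05, at a difference of -0.90, whereas the other muscle miRNA, miR-133, was at 0.57 (unadjusted limma p = 0.0620). For miR-2 they were miR-252 (0.68), miR-981 (0.51) and miR-8 (0.48), and for miR-11 they were miR-263b (0.87), miR-3719 (0.70) and miR-989 (0.70). The normalized value of miR-252 was the same in all dsGFP pools (SD 0), so the spread behind its r with miR-2 lies in dsVg pools (SD 0.33). For miR-13b they were miR-87 (0.93), bantam (0.90) and miR-279 (0.89), but without dsVg pool 5 these r were 0.36, 0.11 and 0.54. For miR-11 the values without that pool were 0.86, 0.65 and 0.64, for miR-71 0.86, 0.85 and 0.73, and for miR-2 0.76, 0.70 and 0.35. Over all other tested miRNAs the median r was between -0.07 and 0.07 for each member.

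Among miRNAs with related roles in flies, 0 passed the adjusted threshold, as for the array as a whole. Of the other miRNAs of the Notch target boxes, 2 of 5 listed were on the array. miR-7, which reads the GY box, stood at 12.03 ± 1.41 in dsVg brains and 12.45 ± 0.55 in dsGFP brains (difference -0.42, SE 0.57). miR-79, which reads the Brd box, stood at 7.01 ± 0.28 in dsVg brains and 6.89 ± 0.30 in dsGFP brains (difference 0.12, SE 0.16), and the median difference of both was -0.15. Of the 4 listed regulators of pro-apoptotic genes in flies beside the members, 2 were on the array, with a median difference of -0.86 against 0.03 over all 84: bantam, which represses hid, differed by -0.18 (SE 0.28) and miR-14 by -1.54 (SE 1.48). The median of these 2 rests on miR-14, whose SD was 3.17 in dsVg pools and 2.38 in dsGFP pools. Like miR-13b, bantam and miR-7 were far below the other dsVg pools in dsVg pool 5, with deviations of -1.78 and -3.23 on the log2 scale, against -1.80 for miR-13b. The GC content of the target is 34.8% for each of these 3 miRNAs, which were taken from the members and the lists. Of the 84 tested miRNAs, 17 had their lowest value of the 12 pools in dsVg pool 5. The part of GC content in these low values was not tested. The seed relative miR-2944 differed by -0.02 (SE 0.08) at the level of background.

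Markers of the labelled tissue were present: of 5 neuronal and brain miRNAs, miR-124, miR-184 and miR-276 were detected on all 12 arrays and miR-137 and miR-1000 on 11. Detection did not set brain apart from muscle, as miR-133 was detected on 12 arrays and miR-1 on 11. The gut miRNAs miR-375 and miR-750 were detected on 9 and 6. In the authors' values the sum of the 5 brain miRNAs was 33138 to 40033 in dsVg pools and 31042 to 41502 in dsGFP pools. The sum of the 2 muscle miRNAs, miR-1 and miR-133, was 235 to 570 in dsVg pools and 282 to 783 in dsGFP pools, and that of the 2 gut miRNAs 52 to 82 in dsVg pools and 58 to 84 in dsGFP pools. The sum of the 3 eye and sensory organ miRNAs was 3162 to 6364 in dsVg pools and 3396 to 7941 in dsGFP pools. Their part in the signals of the members was not tested.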

How the data were processed

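Each of the 12 arrays has a table of spot intensity on a linear scale, per the file headers, with background still included. The authors' deposited table of processed intensity values holds whole numbers and its normalization and centring stay unknown. The medians of its columns lay between 22 and 29.5, and over 33 miRNAs its columns followed the scanner signal at r of 0.981 to 0.998 within an array. In deviations from the mean of each miRNA, 11 of 12 columns matched their own array best. The header of dsGFP pool 1 names a median where the others name a mean. Per the labels' protocols, RNA was poly(A)-tailed, tagged and stained with Cy3. The scanner software was not given in the sources used here.

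Intensities were corrected with normexp (offset 50) (limma 3.58.1, R 4.3.3), log2 values of the 18 spots were averaged, and the 168 probes were quantile-normalized. Detection used the 95th percentile of empty spots, and 84 miRNAs detected on at least 6 arrays were tested with lmFit and eBayes. Correlations used 100000 permutations, or all orders with 6 pools. The 30 within-group pairs of pools differed beyond the noise of spots (chi-square over its degrees of freedom at least 87.8). Deviations of same-numbered pools correlated at r of -0.27 to 0.53, above 0.1 for numbers 4 and 6 alone, so numbers were not treated as pairs. The script was tested on simulated data. The number of arrays limits precision. The members, lists and tests were chosen with earlier results of these data known. Named were the members, the 3 tested miRNAs most like each, and the fixed lists. Alternatives changed normalization, background correction, filter, spot summary, weights, blocks and pools. The GC coefficient, its use as a covariate, the row ratio, the exclusion of low spots the joint exclusion of dsVg pool 5 and dsGFP pool 1, and the deposited table without dsGFP pool 4 were added after the data were seen.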

Additional observations from a re-analysis of the deposited data

Results flagged for a closer look

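Dixon's test marks a pool whose gap to its nearest neighbour is large for the range of its group of 6, and by chance about 1 in 20 groups is marked. It marked 4 of the members' values, counted over the normalized signal and the authors' values together, so that 1 pool can be counted on both. For miR-13b it marked dsVg pool 5, at 10.51 in normalized log2 signal and at 9.43 as the log2 of the authors' value. Over all 84 miRNAs, 29 of 168 groups were marked after normalization, 5 of them low and 1 high in dsVg pool 5. Marks were thus more common on these arrays than 1 in 20. The deviation of miR-13b in that pool was the sixth lowest of 84. For miR-2 the test marked dsGFP pool 6 at 12.86, where the other dsGFP pools share 2 values set by their rank, and dsVg pool 1 at 12.22 as the log2 of the authors' value.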

How the results depend on the processing

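Over 33 alternatives none of the 4 members passed the adjusted threshold, and miR-71 and miR-13b kept a negative difference in all of them. Not every alternative bears on the sign. Changes of filter act after normalization and the blocks are balanced between the groups, so these settings cannot move a difference. The difference of miR-2 turned to 0.29 after scaling to the 75th percentile, 0.42 after scaling to the median, 0.0888 with cyclic loess, 0.48 without normalization, 0.010 with the median of spots, 0.0473 with array weights, 0.13 in the deposited table, 0.15 there without dsGFP pool 4 and 0.013 without low spots. With 1 pool left out it was -0.0969 to 0.0332 for miR-2 and -0.0172 to 0.25 for miR-11. That of miR-11 turned to -0.0562 within arrays with over 80 detected miRNAs, -0.0114 without dsVg pools 1 and 5 and -0.0201 with the GC coefficient as a covariate. The count at an unadjusted p under 0.05, 3 in the main setting, was 1 with median scaling, plain subtraction, the arrays with over 80 detected miRNAs, or without dsVg pool 5 and dsGFP pool 1, 5 within the other arrays, 6 without a filter and in the deposited table, 7 in that table without dsGFP pool 4 and with cyclic loess, 12 with array weights and 1 to 13 with 1 pool left out; it was 13 without dsVg pool 3 and 8 without dsVg pool 6, and 1 without dsVg pool 1, dsGFP pool 1 or dsGFP pool 5. Array weights alone gave a call at the adjusted threshold, 1 miRNA that is no member. The replicate block cannot move a difference, as each pool number occurs once per group, and that of miR-13b stayed at -0.48. It changed no call, with 3 miRNAs at an unadjusted limma p under 0.05. For miR-71 the unadjusted limma p went from 0.232 to 0.0744 with the block (adjusted p = 0.753).

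Correlated pairs of members numbered 1 after scaling to the 75th percentile, 6 after scaling to the median, 2 without normalization and 1 in the deposited table with or without dsGFP pool 4, against 0. The pair at the 75th percentile was miR-2 with miR-11. Those without normalization were miR-2 with miR-11 and miR-71 with miR-13b. The r of miR-71 and miR-11 turned to -0.33 with the 75th percentile, -0.62 with cyclic loess, -0.57 in the deposited table with or without dsGFP pool 4, -0.0295 with array kind as a block and -0.26 within arrays with over 80 detected miRNAs. That of miR-71 and miR-2 turned to 0.70 with median scaling, 0.55 without normalization and 0.11 within arrays with at most 80 detected miRNAs, where that of miR-2 and miR-11 was -0.30. That of miR-13b and miR-11 turned to 0.61 with median scaling and 0.34 without normalization. The r of miR-2 and miR-13b was -0.12 with the median of spots, -0.87 within arrays with over 80 detected miRNAs and -0.24 without dsVg pools 1 and 5, where that of miR-71 and miR-13b was -0.16. With 1 pool left out, r was -0.31 to 0.23 for miR-71 with miR-11, -0.29 to 0.27 for miR-2 with miR-11, -0.0825 to 0.48 for miR-71 with miR-13b and -0.22 to 0.50 for miR-2 with miR-13b. The difference between groups of miR-71 minus miR-13b turned to -0.15 with the 75th percentile, median or no normalization, -0.43 within arrays with over 80 detected miRNAs and -0.0692 without dsVg pools 1 and 5, and was -0.115 to 0.374 with 1 pool left out. Within arrays with over 80 detected miRNAs that of miR-2 minus miR-13b was -0.0078, of miR-2 minus miR-11 0.0204 and of miR-13b minus miR-11 0.0282, and without dsVg pools 1 and 5 that of miR-2 minus miR-11 was 0.0108. The r of the GC coefficient with miR-11 turned to -0.47 with median scaling and -0.36 without normalization. The cause of these reversals was not tested.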
